A study of Mus musculus with 24 samples.

Results

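The cluster that runs between miR-379 and miR-410 is a long row of miRNA hairpins in the imprinted Dlk1-Dio3 domain of mouse chromosome 12. Its miRNAs were followed here on the Agilent mouse miRNA arrays of a study that compared miRNA array platforms with a pair of RNA references. Members were the array's miRNAs, star strands left out, whose names belong to 33 hairpins of the cluster, and all 33 names were on the array. They gave 38 miRNAs of the 566 mouse miRNAs measured, since 5 hairpins were represented by a 5p and a 3p entry. Reference 1 mixed, in equal amounts, RNA of mouse testicle, ovary and embryos of 10 to 12 days. Reference 2 mixed RNA of mouse heart, lung and liver in the same way. The source was purchased RNA in which the small fraction had been kept, and the labels give no strain, adult age or genotype. Each pool was hybridized as 2 aliquots, in one color (Cy3), so 4 of the 24 samples of the series are used. Both aliquots were drawn from the same tube of pooled RNA. Their spread, and every p-value below, is therefore technical and describes no variation between animals.

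The Dlk1-Dio3 domain carries genes expressed from only 1 parental allele. The paternal chromosome expresses the protein-coding genes Dlk1, Rtl1 and Dio3. The maternal chromosome expresses long non-coding RNAs (Meg3, Rian and Mirg) and many small RNAs, among them the hairpins of this cluster, which are thought to be cut from shared primary transcripts. The cluster is found only in placental mammals, and its miRNAs are best known from the embryo, the placenta and the brain. Mice that lack it have shown poor metabolic adaptation after birth and altered anxiety-related behavior. A miRNA selects its targets mainly through its seed, bases 2 to 8 from the 5′ end, so members with the same seed are expected to share targets.

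The 33 hairpins were matched to RefSeq genes of the GRCm38.p6 assembly. They span chr12:109709060-109743795, a stretch of 34.7 kb with Mir379 at one end and Mir410 at the other. RefSeq mature sequences are shown for the hairpins with the largest differences or with a shared seed, 5′ to 3′ with the seed in capitals. The array's names for 28 members do not say which arm was probed, so every arm that RefSeq lists is given for those shown, which for miR-376c is 1. The 5p and 3p names of miR-380 and miR-409 matched RefSeq entries exactly.
miR-410-5p: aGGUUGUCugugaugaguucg
miR-410-3p: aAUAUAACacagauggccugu
miR-494-5p: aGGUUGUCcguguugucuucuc
miR-494-3p: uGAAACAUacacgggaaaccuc
miR-379-5p: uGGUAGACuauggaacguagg
miR-379-3p: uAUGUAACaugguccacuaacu
miR-411-5p: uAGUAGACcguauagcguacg
miR-411-3p: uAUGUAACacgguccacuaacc
miR-376b-5p: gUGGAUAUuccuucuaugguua
miR-376b-3p: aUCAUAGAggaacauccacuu
miR-376c-5p: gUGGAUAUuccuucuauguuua
miR-300-5p: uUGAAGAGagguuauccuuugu
miR-300-3p: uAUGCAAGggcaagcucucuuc
miR-381-5p: aGCGAGGUugcccuuuguauauu
miR-381-3p: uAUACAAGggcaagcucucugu
miR-495-5p: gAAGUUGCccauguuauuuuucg
miR-495-3p: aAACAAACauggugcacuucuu
miR-380-5p: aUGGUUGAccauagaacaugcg
miR-380-3p: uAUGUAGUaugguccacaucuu
miR-409-5p: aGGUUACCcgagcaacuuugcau
miR-409-3p: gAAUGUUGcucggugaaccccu

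Some of these hairpins share a seed on one arm. The seed GGUUGUC is that of miR-410-5p and miR-494-5p, AUGUAAC is that of miR-379-3p and miR-411-3p, and UGGAUAU is that of miR-376b-5p and miR-376c-5p. The array names of these members give no arm, so their values below need not belong to the arm with the shared seed. Over the whole sequence, seed included, some members also resemble each other. Aligned from the 5′ end, miR-376b-5p and miR-376c-5p are identical at 21 of 22 positions. The 3p arms of miR-379 and miR-411 share 20 of 22 positions, those of miR-300 and miR-381 share 19 of 22, and those of miR-376a and miR-376b share 18 of 21. A probe may pick up signal from such a near copy, and whether it did was not tested. The letters GGUU, read on the sense strand, lie within the first 8 bases of 11 of the 32 listed 5p arms (34.4%), against 4.26% of 727 mouse 5p arms in the RefSeq table. The letters ACNNGG lie anywhere in 13 of the 30 listed 3p arms (43.3%), against 7.66% of 731 mouse 3p arms. The mouse arms include those of the cluster, which hold 11 of the 31 matches to GGUU and 13 of the 56 to ACNNGG. These letters were not part of the planned description, and the shares were not tested.

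The arrays were checked first. No spot was saturated, and on an array the number of miRNAs well above background (at least 50% of a miRNA's spots flagged so by the scanner software) was 214 and 222 in Reference 1, against 157 and 153 in Reference 2. The tissue markers followed the labels. All 8 miRNAs of the heart, liver and lung endothelium lists were lower in Reference 1, such as miR-1 of striated muscle (log2 difference -2.52 ± 0.04, SE) and miR-122 of hepatocytes (-2.50 ± 0.04). All 8 of the testis, gonad and embryo lists were higher, such as miR-34c of testis (2.07 ± 0.05) and miR-10b of the embryonic trunk (3.39 ± 0.05). The smallest difference of these 8 was that of miR-196a of the embryo list (0.30 ± 0.03). miR-10a, which was not on the lists, was lower in Reference 1 (-1.07 ± 0.05). The 3 neural markers were higher in Reference 1, with miR-124 at 1.27 ± 0.04, miR-9 at 0.35 ± 0.03 and miR-137, well above background on no array, at 0.14 ± 0.03. All 19 listed markers had adjusted p-values under the threshold of 0.05 (limma, Benjamini-Hochberg over 566 miRNAs), the largest being 1.6e-05 for miR-137. How far neural tissue of the embryos entered the cluster values was not tested.

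In Reference 1, 27 of the 38 cluster miRNAs (71.1%) were higher than in Reference 2, 2 were lower and 9 did not pass the test. Over all 566 miRNAs, 29.9% were called higher and 28.3% lower. The median log2 difference over all 38 members was 0.19, beside -0.01 over all miRNAs. The split over all miRNAs, 169 higher and 160 lower, depended on scaling. It was 164 and 73 without normalization, 178 and 320 with median centering, and 180 and 86 with the processed signal scaled on detected spots. In all these comparisons the 4 values of a member are signals of bulk RNA, in which fewer cells of a type and less RNA per cell cannot be told apart, nor can the tissues of a pool.

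The samples of the references did not overlap for 31 of the 38 members (81.6%), close to the 77.0% of all 566 miRNAs, so overlap alone told little. Detection differed more from the share over all miRNAs. Well above background on both Reference 1 arrays and on no Reference 2 array were 19 members (50%), beside 13.4% of all 566 miRNAs. The floor for this was not equal. The lowest normalized log2 signal counted was 5.52 and 5.50 on the Reference 1 arrays, against 5.81 and 5.97 on the Reference 2 arrays. A miRNA of nearly equal signal can therefore count as detected in Reference 1 only. An example outside the cluster was miR-106a, with 5.81 and 5.80 in Reference 1, against 5.80 and 5.78 in Reference 2 (not called). A single member, miR-494, was well above background on all 4 arrays, and the other 18 were so on none. In the 19, the median spot signal ranged between 56.5 and 384.5 units in Reference 1, against 39.75 and 51 units in Reference 2. The negative control spots had medians of 48 and 44 units on the Reference 1 arrays and 47 and 49 units on the Reference 2 arrays. For these 19 the Reference 2 signals therefore lay close to those of spots that should bind no miRNA. A lower bound on the fold change, described with miR-410, could be set for 16 of them. Each of the 19 was called higher under the main processing and under all 16 alternatives that were run. The 19 were picked by detection in Reference 1 only, so these calls were largely given in advance and are no separate support.

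**Figure D1:**
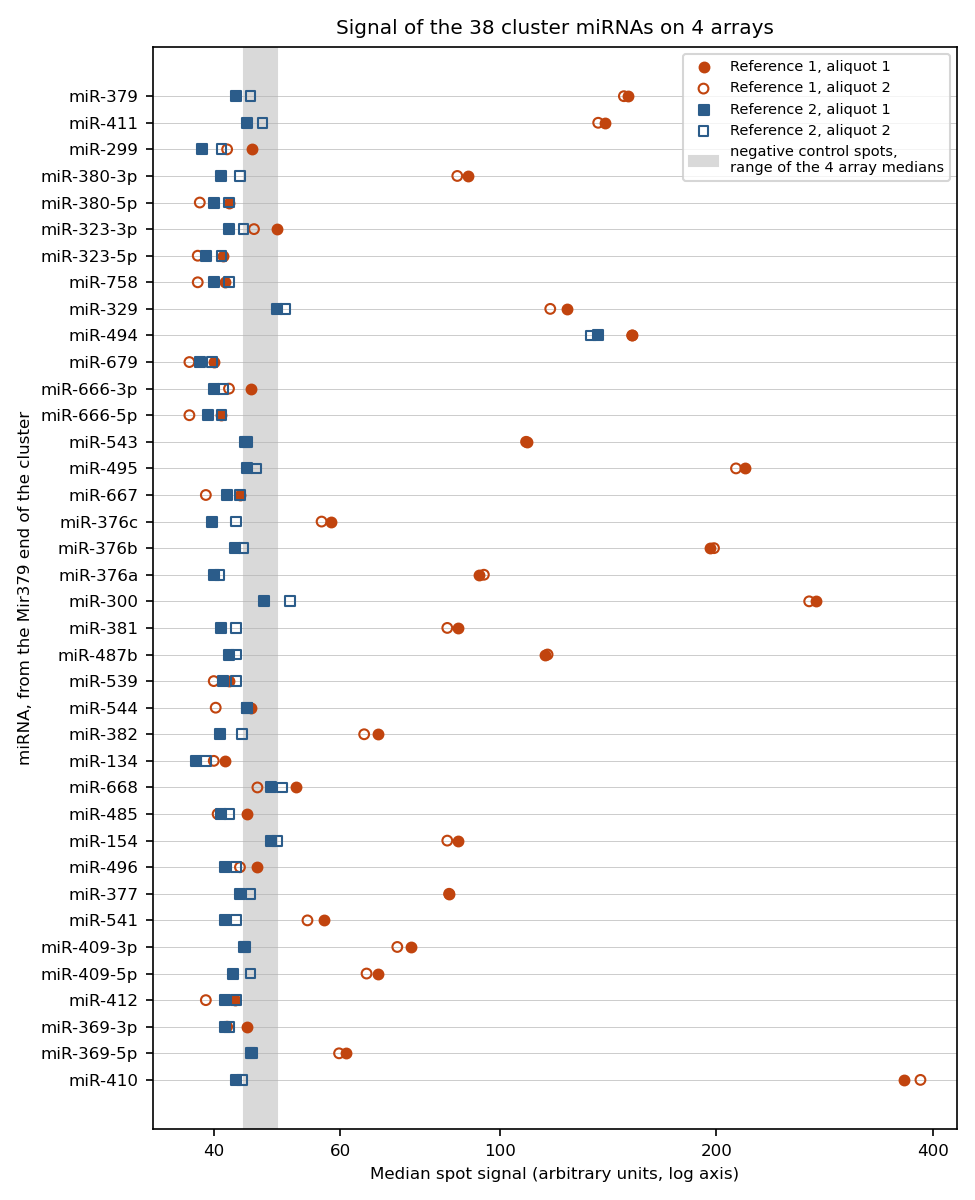
Median spot signal (arbitrary units, log axis, not normalized) of the 38 cluster miRNAs, from the Mir379 end at the top to miR-410 at the bottom. Circles are the 2 aliquots of Reference 1, squares the 2 of Reference 2, and the grey band spans the 4 array medians of the negative control spots, 44 to 49. The Reference 1 circles of 19 members stand at 56.5 or more while their Reference 2 squares stand at 51 or less, and only miR-494 is far to the right in both.

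The largest difference belonged to miR-410, whose hairpin (chr12:109743715-109743795) closes the cluster. Its normalized log2 signal was 8.31 and 8.37 in Reference 1, against 5.67 and 5.62 in Reference 2. Both Reference 1 values lay far above both Reference 2 values, and the spread within a reference (SD 0.05 and 0.03, n = 2 each) was small beside the gap. The difference was 2.69 ± 0.04 (SE, limma adjusted p = 3.3e-29), and both of its probes gave nearly the same value, 2.66 and 2.75. In spot signal, miR-410 had 364.5 and 384.5 units in Reference 1, against 43 and 43.75 units in Reference 2, below the negative control medians. Set against the lowest signal counted as well above background on the Reference 2 arrays, miR-410 was at least 5.46-fold higher in Reference 1. The bounds that follow use the same floor for each Reference 2 array, or the miRNA's own signal there if that was higher.

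The Mir379 end held the next members in genome order: miR-379, miR-411, miR-299, miR-380, miR-323, miR-758 and miR-329. miR-379, which gives the cluster its name, had a normalized log2 signal of 6.86 and 6.83 in Reference 1, against 5.74 and 5.72 in Reference 2. The groups did not overlap, the difference was 1.12 ± 0.03 (limma adjusted p = 3.3e-22), and the bound was at least 1.94-fold. Its neighbor miR-411 had 6.81 and 6.79 in Reference 1, against 5.80 and 5.80 in Reference 2. This difference of 1.00 ± 0.03 (limma adjusted p = 4.6e-21) was close to that of miR-379 and had a bound of at least 1.88-fold. The probes of miR-379 were not alike, with differences of 0.49 and 1.81, and those of miR-411 gave 0.66 and 1.39. miR-329 had 6.65 and 6.57 in Reference 1, against 5.94 and 5.93 in Reference 2, again without overlap. It was at least 1.57-fold higher (difference 0.67 ± 0.04, limma adjusted p = 2.3e-16).

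The other entries at this end were dim, and most lay on no array well above background. miR-380-3p was the exception, with spot signals of 90.25 and 87.25 units in Reference 1, against 41 and 43.5 units in Reference 2. Its difference was 0.45 ± 0.03 and its bound at least 1.21-fold. miR-299 and miR-323-3p were called higher by 0.16 ± 0.02 and 0.15 ± 0.02, but their spot signals reached only 45.25 and 49 units in Reference 1. For miR-299 the 4 probes disagreed, from -0.06 to 0.40, the only case of probes on both sides of 0 among the 27 members called higher. miR-380-5p, miR-323-5p and miR-758 did not pass the test (adjusted p = 0.81, 0.32 and 0.79), with differences from -0.01 to 0.02.

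Between these and the miR-376 group lie miR-494, miR-679, miR-666, miR-543, miR-495 and miR-667. miR-495 had a normalized log2 signal of 7.52 and 7.46 in Reference 1, against 5.73 and 5.71 in Reference 2. With a difference of 1.77 ± 0.04 (limma adjusted p = 4.6e-26) it was at least 3.03-fold higher, and its probes gave 1.31 and 2.2. miR-543, whose 3p arm is identical to that of miR-495 at 18 of 22 positions, had 6.44 and 6.45 in Reference 1, against 5.81 and 5.74 in Reference 2. Its difference was 0.67 ± 0.03 and its bound at least 1.47-fold. miR-666-3p, dim on every array, was called higher by 0.12 ± 0.02. miR-666-5p, miR-679 and miR-667 lay between -0.02 and 0.02 and did not pass the test, with spot signals of 37 to 43.5 units in all 4 samples.

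miR-494 stood apart from its neighbors. Its spot signal was 152.75 units in both aliquots of Reference 1, against 137 and 134 units in Reference 2, so the raw values were higher in Reference 1. After cyclic lowess the order was the other way, with normalized log2 signals of 7.02 and 6.98 in Reference 1, against 7.31 and 7.25 in Reference 2. The normalized difference was -0.28 ± 0.04 (limma adjusted p = 1.5e-06), and both probes lay below 0. Its direction flipped to 0.16 without normalization, where it was called higher (adjusted p = 0.0015). It also flipped to 0.12 with median centering and to 0.05 with the processed signal scaled on detected spots, neither of them called. The seed of its 5p arm, GGUUGUC, is that of miR-410-5p, but the array names do not say which arm was measured. What holds for miR-494 in both versions is that Reference 2 carried a signal of it well above background, unlike any other member.

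The middle of the cluster held the miR-376 family with miR-300, miR-381, miR-487b, miR-539 and miR-544. Transcripts of the miR-376 family are known substrates of A-to-I RNA editing in mouse brain. miR-300 had a normalized log2 signal of 7.74 and 7.71 in Reference 1, against 5.82 and 5.86 in Reference 2. It was at least 3.56-fold higher (difference 1.88 ± 0.04, limma adjusted p = 2.1e-26), with probes at 1.31 and 2.54. miR-376b had 7.34 and 7.34 in Reference 1, against 5.68 and 5.64 in Reference 2. It was at least 2.74-fold higher (difference 1.68 ± 0.04, limma adjusted p = 5e-26). Neither miRNA had values that overlapped between the references.

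Its relatives differed by less. miR-376a had 6.26 and 6.31 in Reference 1, against 5.63 and 5.52 in Reference 2, a difference of 0.71 ± 0.03 and a bound of at least 1.32-fold. miR-376c had 5.76 and 5.78 in Reference 1, against 5.40 and 5.43 in Reference 2. The difference of 0.35 ± 0.03 passed the test (limma adjusted p = 9.6e-13), but its Reference 1 signal did not exceed the Reference 2 floor, so no bound on its fold change could be given. None of these relatives had values that overlapped between the references. miR-487b had 6.53 and 6.54 in Reference 1, against 5.73 and 5.71 in Reference 2, at least 1.56-fold higher (difference 0.82 ± 0.03). miR-381, whose 3p arm resembles that of miR-300, differed by 0.56 ± 0.03 with a bound of at least 1.18-fold. miR-539 (-0.0044 ± 0.02) and miR-544 (-0.04 ± 0.02) did not pass the test, and their signals on all 4 arrays were at most 45 units.

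Toward the far end the differences after cyclic lowess were small until miR-410. Of the 13 entries from miR-382 to miR-369, 11 were called higher (beside 29.9% of all miRNAs), but none by more than 0.39. miR-382 differed by 0.39 ± 0.03, miR-377 by 0.35 ± 0.03, miR-541 by 0.31 ± 0.03 and miR-154 by 0.24 ± 0.03. All of these samples of Reference 1 lay above those of Reference 2, but miR-541 was not well above background on any array. miR-134, known in rat neurons for limiting translation of the kinase Limk1 in dendrites, differed by 0.12 ± 0.02 with spot signals of 41.5 and 40 units in Reference 1, against 37.75 and 39 units in Reference 2. Those values are under the negative control medians in all 4 samples, so miR-134 was called without being detected. miR-496 and miR-485 were also called higher while well above background on no array, by 0.11 ± 0.02 and 0.07 ± 0.02, and miR-412 did not pass the test.

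miR-668 was the second member called lower. Its normalized log2 signal was 5.58 and 5.54 in Reference 1, against 5.62 and 5.67 in Reference 2. The values did not overlap, but the difference was only -0.08 ± 0.03 (limma adjusted p = 0.014), and the miRNA was well above background on no array. It was no longer called without Reference 1 replicate 2 (adjusted p = 0.25) or without Reference 2 replicate 2 (adjusted p = 0.088). Its spot signals, 52 and 46 units in Reference 1 against 48 and 49.75 units in Reference 2, overlapped.

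**Figure D2:**
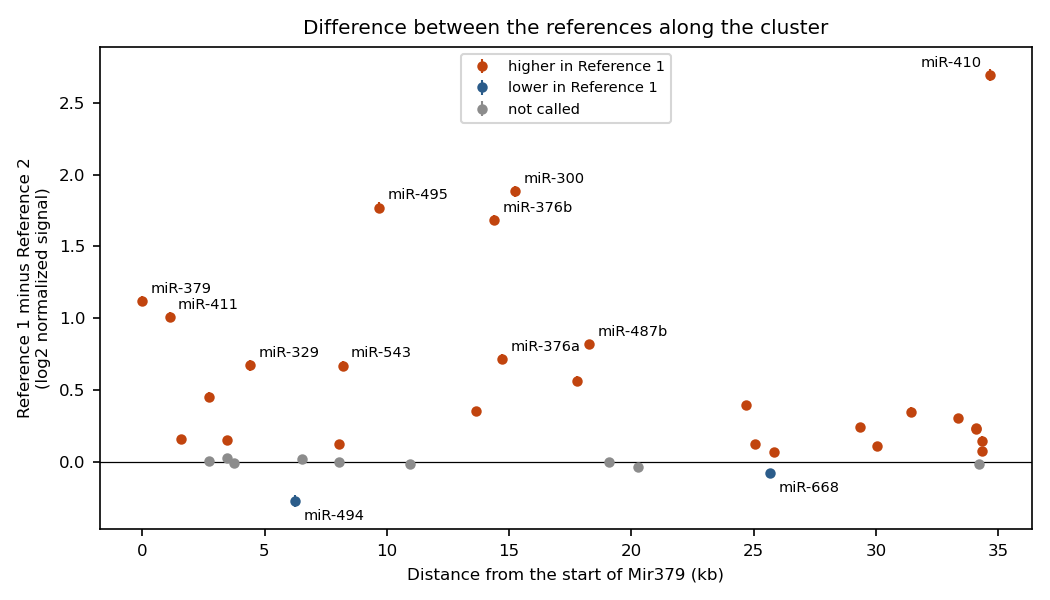
Difference of each cluster miRNA between the references (Reference 1 minus Reference 2, log2 of normalized signal, with its SE as a bar that is often hidden by the point) against the distance of its hairpin from the start of Mir379 (kb). Points above 1 lie at the Mir379 end (miR-379 and miR-411), in the middle (miR-495, miR-376b and miR-300) and at the far end (miR-410), with members near 0 beside them.

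Differences of 1 or more lay at both ends and in the middle of the cluster. In genome order the first 11 hairpins gave 8 of 14 entries called higher, the middle 11 gave 8 of 11, and the last 11 gave 11 of 13. Of all miRNAs, 29.9% were called higher. Well above background on both Reference 1 arrays were 6 of the 14, 8 of the 11 and 6 of the 13 entries, beside 214 of all 566 miRNAs. The first of these counts includes miR-494, which was detected in both references. The median differences of these stretches were 0.14, 0.56 and 0.15 after cyclic lowess, and 0.13, 0.89 and 0.39 without normalization. Across the 38 entries, which share their arrays, Spearman's correlation of position and difference was -0.05. Sizes of difference fell into 6 members of 1 or more on the log2 scale, 5 members between 0.5 and 1, 8 under 0.5 that were detected only in Reference 1, miR-494 with its negative value, and 18 that were well above background on no array. The 6 were miR-410, miR-300, miR-495, miR-376b, miR-379 and miR-411. The 9 members that did not pass the test ranged between -0.04 and 0.02, and their signals were 37 to 45 units in Reference 1, against 38.25 to 44.5 units in Reference 2. Nothing can be said of these 9 beyond that no difference was detectable at this signal.

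Both strands of a hairpin could be compared for 14 hairpins. Of the 5 measured as 5p and 3p, the 3p entry was called higher in all, the 5p entry only for miR-409 and miR-369. The arms of miR-409 moved alike, with 5p at 0.23 ± 0.03 and 3p at 0.23 ± 0.03. miR-409-3p had spot signals of 75.25 and 72 units in Reference 1, against 44 and 44.25 units in Reference 2, and miR-409-5p had 67.75 and 65.25 units in Reference 1, against 42.5 and 45 units in Reference 2. In miR-369 the 5p arm was well above background in Reference 1 (61 and 59.75 units, against 45.25 and 45 units in Reference 2) and differed by 0.15 ± 0.03. Its 3p arm was not, with a difference of 0.07 ± 0.02. That arm had 44.5 and 41.75 units in Reference 1, against 41.5 and 42 units in Reference 2, which overlapped before normalization. miR-380 was the reverse, with 0.45 ± 0.03 on the 3p arm and 0.01 ± 0.02 on the 5p arm. miR-380-5p had 42 and 38.25 units in Reference 1, against 40 and 42 units in Reference 2, and so showed no separation.

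The arms of miR-323 and miR-666 were dim throughout. miR-323-3p had 49 and 45.5 units in Reference 1, against 42 and 44 units in Reference 2, while miR-323-5p had 41.25 and 38 units in Reference 1, against 39 and 41 units in Reference 2. miR-666-3p had 45 and 42 units in Reference 1, against 40 and 41.25 units in Reference 2, while miR-666-5p had 41 and 37 units in Reference 1, against 39.25 and 41 units in Reference 2. In spot signal, the Reference 1 samples of both hairpins lay above those of Reference 2 for the 3p arm and overlapped them for the 5p arm, close to the negative controls. After cyclic lowess the values of miR-323-5p no longer overlapped, but its difference of 0.02 ± 0.02 did not pass the test.

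The 9 star strands, the arms that older nomenclature took for the less abundant product, were not members but come from the same hairpins. Of these, 6 were called higher, 1 lower and 2 did not pass the test, beside 29.9% higher and 28.3% lower of all miRNAs. Well above background in Reference 1 and in no Reference 2 sample were 4 (44.4%), beside 13.4% of all miRNAs. miR-299* had a normalized log2 signal of 6.91 and 6.83 in Reference 1, against 5.94 and 5.90 in Reference 2. Its difference of 0.95 ± 0.04 (at least 1.89-fold, limma adjusted p = 1.7e-19) stands beside 0.16 ± 0.02 for miR-299, the strand named as the main one. miR-411* differed by 0.62 ± 0.03, beside 1.00 ± 0.03 for miR-411, and miR-154* by 0.31 ± 0.03, beside 0.24 ± 0.03 for miR-154. Beside the large differences of miR-300 and miR-376b, their star strands were never well above background, with 0.18 ± 0.02 for miR-300* and 0.11 ± 0.02 for miR-376b*. miR-376c* was called lower, by -0.05 ± 0.02 (limma adjusted p = 0.038), with signals of 42.5 and 39.5 units in Reference 1, against 42.75 and 44 units in Reference 2. Differences between strands were not tested, since each strand has its own probes.

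**Figure D3:**
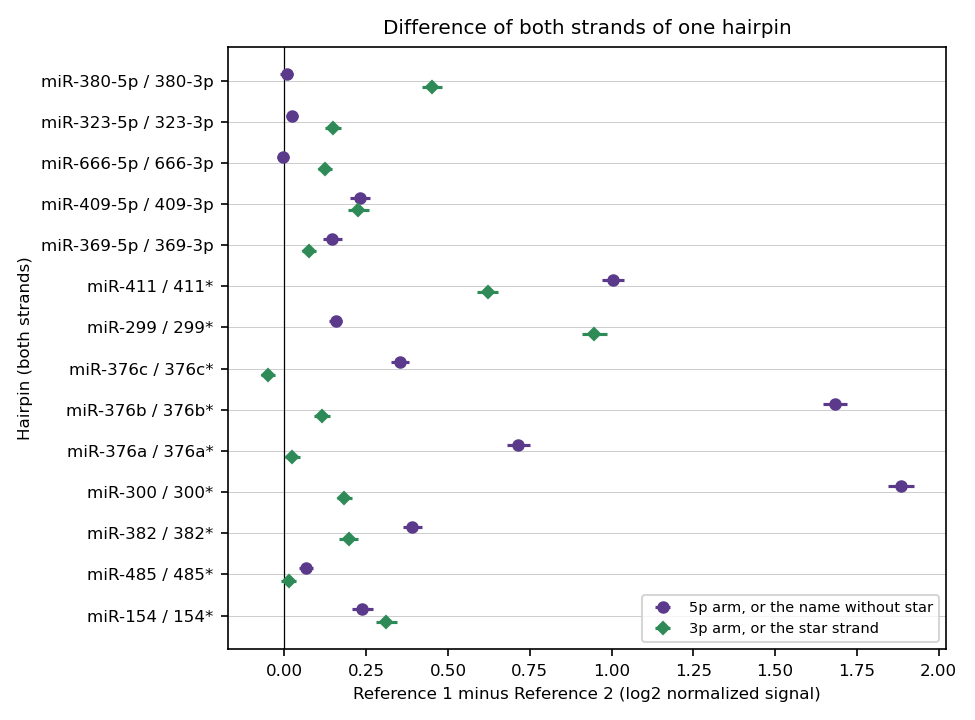
Difference between the references (Reference 1 minus Reference 2, log2 of normalized signal, bars are SE) of both strands of 14 hairpins. Circles are the 5p arm or the strand named without a star, diamonds the 3p arm or the star strand. miR-299* lies far to the right of miR-299, while miR-300 and miR-376b lie far to the right of their star strands.

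The rest of the imprinted domain was read from a list of its other miRNAs, 19 of which were on the array. Of them 11 were called higher and 1 lower (beside 29.9% and 28.3% of all miRNAs), and 7 did not pass the test. Well above background in both Reference 1 samples and in no Reference 2 sample were 10 (52.6%, beside 50% of the cluster and 13.4% of all miRNAs). miR-127, transcribed antisense to Rtl1 and known to direct cleavage of its transcript, had a normalized log2 signal of 7.76 and 7.80 in Reference 1, against 5.88 and 5.85 in Reference 2. It was at least 3.61-fold higher (difference 1.91 ± 0.04, limma adjusted p = 2e-26). miR-431 and miR-434-3p, other antisense miRNAs of Rtl1, were higher by 1.83 ± 0.04 and 1.13 ± 0.04. With miR-127 these had the largest differences of the 19, whose median was 0.05 and whose range was -0.05 to 1.91. miR-136, well above background on both Reference 1 arrays, differed by 0.04 ± 0.03 and did not pass the test. The lower call was miR-673-5p (-0.05 ± 0.02), well above background on no array.

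The size of the cluster's differences rested on the normalization, their direction mostly not. For all 19 members detected only in Reference 1, the difference was larger without normalization than after cyclic lowess. Their median was 0.67 after cyclic lowess and 1.19 without normalization. miR-154, with 87.5 and 84.5 units in Reference 1, against 48 and 49 units in Reference 2, differed by 0.24 after lowess and 0.81 before it. Of the 19, miR-410 changed least in proportion, with a log2 difference of 2.69 after lowess and 3.11 before it. Why lowess narrowed these differences was not tested. All 27 members called higher stayed above 0 without normalization, but only 20 of them were called there. The 7 that were not called are all among the 8 called members that were well above background on no array, and miR-541 was the eighth.

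**Figure D4:**
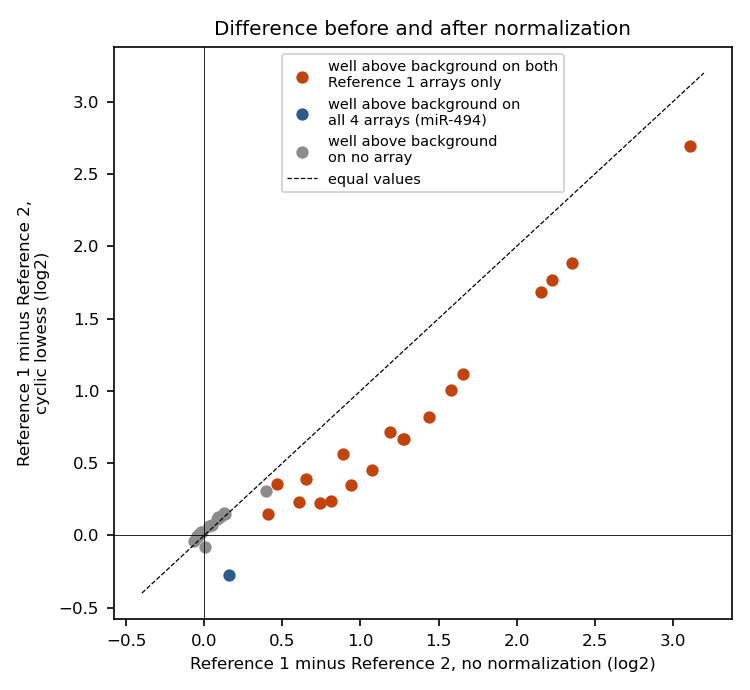
Difference between the references (Reference 1 minus Reference 2, log2) of the 38 cluster miRNAs after cyclic lowess against the same difference without normalization, with a dashed line of equal values. The 19 members detected only in Reference 1 lie below the line, and miR-494 is above 0 on the horizontal axis and below 0 on the vertical one.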

How the data were processed

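The authors' scanner files hold the deposited spot intensity of 4 Agilent arrays on 1 slide, read with Agilent Feature Extraction 9.5.3.1 (per the labels) and not normalized between arrays. The methods state that 4 arrays per reference were hybridized and 2 of each were picked at random. The authors also deposited normalized log2 values after cyclic lowess. Over 560 shared miRNAs these correlated with the recomputed values at 0.999 or more (Pearson), and they served as an alternative. The genome build of the array design is not given in the sources used here.

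As in the study's methods, log2 of the median spot signal, with no background subtracted, went through cyclic lowess (span 0.7, 3 iterations) over all 11540 non-control spots. The spots of a miRNA, 19 or 20 for each member, were then replaced by their median. Background was left in, which understates differences of dim miRNAs whose signal exceeds it. For miRNAs at the level of the negative control spots, whether a difference came from background alone was not tested. The number of arrays, 2 per reference, limits the precision. References were compared with limma 3.58.1 in R 4.3.3, with an intensity trend and Benjamini-Hochberg adjustment over 566 mouse miRNAs. The 10 viral miRNAs on the array were used only for normalization. On simulated data with 200 miRNAs changed by 1 on the log2 scale, 100% were recovered with 7 false calls. The simulation drew normal noise around normalized means and held no smaller changes, so it says nothing of small differences near background.

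Members and lists were chosen with earlier results of these data known. Values per sample are given for the 10 detected members with the largest difference, the 5 brightest in Reference 1, those called lower, those with a shared seed, and those with both arms named. The rest are given by counts and ranges, except miR-381, miR-382, miR-154, miR-377, miR-541 and miR-134 and others near background, which were named after their values were seen. Alternatives were the scaling between arrays, the processed and normexp signals, the deposited values, the mean over probes, leaving out outlier spots or dim miRNAs, no intensity trend, the replicate number as a block, and each array left out. G+C content was not set against the differences, since 28 array names give no arm. RefSeq lists only 1 arm for miR-376c, miR-485, miR-487b and miR-539.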

Additional observations from a re-analysis of the deposited data

How the results depend on the processing

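The count of cluster miRNAs that differ and the count called higher stayed within 1.5 times of the main values, 29 and 27, under all 16 alternatives. The count called lower did not. The main count of 2 became 9 with median centering and 4 with normexp correction, 1 among miRNAs well above background, and 0 without normalization, with the processed signal scaled on detected spots and without outlier spots. Leaving out 1 array gave 1 to 2. Of all miRNAs, 498 differed with median centering, against 169 higher and 160 lower with cyclic lowess, and 283 to 322 with 1 array left out. With the processed signal, miRNAs at its floor on all arrays were left out, a step chosen after the data were seen. The median difference over the 323 and 324 miRNAs that remained was 0.64 when scaled on detected spots and -0.68 when scaled on all spots, beside -0.01 over 566 miRNAs with cyclic lowess.

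The median difference of the cluster, 0.191, was 0.402 without normalization, 0.362 with median centering, 0.243 with quantile normalization, 0.268 in the deposited values, 0.201 as a mean over probes and 0.616 among miRNAs well above background. It was 4.44 and 3.87 with the processed signal, over the 25 and 26 members off its floor, and 0.178 to 0.202 with 1 array left out. The replicate block left it at 0.191. The references share replicate numbers but nothing pairs the aliquots, whose deviations from the group means correlated at 0.06, and with the block 328 of all miRNAs and 29 of the cluster differed.

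Of the 23 members given by sample, directions reversed only for miR-494 and members near background. miR-494 (-0.28) was 0.156 without normalization, 0.117 after median centering and 0.0474 with the processed signal scaled on detected spots, and was not called without outlier spots (-0.445, adjusted p = 0.084). miR-668 was 0.00122 without normalization and 0.484 with that processed signal, neither called. Not called with cyclic lowess, miR-380-5p was -0.0323 without normalization, -0.0719 with median centering (called), -0.0045 with quantile normalization and -0.0015 in the deposited values, and -0.00965 to 0.0224 with 1 array left out. miR-323-5p was -0.0144 without normalization, -0.054 with median centering (called) and -0.00735 as a mean over probes. miR-666-5p was 0.00115 in the deposited values and -0.0242 to 0.0166 with 1 array left out. The other values of these members kept direction and call except 10, which lost or gained a call, of miR-494, miR-668, miR-323-3p, miR-666-5p, miR-666-3p and miR-369-3p. The causes were not tested. Members near background limit what these arrays show.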
